A study of Homo sapiens with 4 samples.

Results

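The ganglioside synthesis enzymes are described here in SY5Y cells, a human neuroblastoma (NB) line labelled MYCN wild type, 12 h after treatment with SGSS05-NS or its solvent DMSO. They are 10 genes taken by name out of the 57820 gene rows of the count files: UGCG, B4GALT5, B4GALT6, ST3GAL5, ST8SIA1, B4GALNT1, ST3GAL2, ST8SIA5, B3GALT4 and B3GALT1. Total RNA was sequenced in 4 libraries, 2 with DMSO and 2 with SGSS05-NS, which the study describes as independent biological replicates. The labels give the dose as 3 μM and the compound as SGSS05-NS, whereas the study names SGSS05-NS3, a covalent SETD8 inhibitor, and it gives both this dose and a lower one for the RNA-seq of this line in different places. The groups share the line, the genotype and the time, and 1 line limits what they stand for. The series concerns SETD8 inhibition in NB. The comparison here asks what the compound did to these enzyme genes, only some of which build the NB antigen GD2.

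Gangliosides are sialic acid-bearing glycosphingolipids of the outer cell membrane, built in the Golgi apparatus by adding 1 sugar after another to ceramide. UGCG adds glucose, B4GALT5 and B4GALT6 add galactose to give lactosylceramide, ST3GAL5 adds the sialic acid that makes GM3, and ST8SIA1 adds another to make GD3. B4GALNT1 then adds N-acetylgalactosamine and turns GM3 into GM2 and GD3 into GD2. GD2 is abundant on most NB cells and is the target of antibodies used to treat this tumor. ST8SIA1 therefore opens the branch that leads to GD2 and B4GALNT1 completes it, while B3GALT4, ST3GAL2 and ST8SIA5 lengthen the chain beyond it. B3GALT1 is a beta-1,3-galactosyltransferase best known for making type I carbohydrate chains.

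Between 21463105 and 25350204 fragments fell on genes per library. Gene differences were tested with edgeR's quasi-likelihood test over 16468 genes, with Benjamini-Hochberg adjustment over all of them and the study's threshold of an adjusted p-value of 0.001. A level is given in CPM, fragments scaled to the library total with edgeR's TMM factors, as mean ± SD with n = 2 libraries, so that p-values rest largely on a spread borrowed from other genes. The share of fragments that met no gene was 12.3% to 12.4% under DMSO and 15.3% to 16.1% under SGSS05-NS, and its part in the results was not tested. CDKN1A (p21), the p53 target that the study follows, rose from 17.4 ± 3.00 to 447 ± 103 CPM. KMT5A, the gene of SETD8, rose by 0.57 on the log2 scale (adjusted p = 0.00037). The NB identity of the libraries was visible in the noradrenergic lineage factors HAND2 (609 ± 8.32 CPM with DMSO) and GATA3 (207 ± 53.4 CPM), whereas TH, the first enzyme of catecholamine synthesis, had between 0 and 2 fragments per library. The glial factor SOX10 had 0 fragments in every library, and among mesenchymal markers PRRX1 was at 0 while TWIST1 (160 ± 11.6 CPM with DMSO), FN1 (64.7 ± 8.81 CPM) and VIM (37.3 ± 0.631 CPM) were expressed.

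Of the 10 ganglioside enzyme genes, 7 had enough fragments to be tested, 1 rose, 1 fell and 5 did not pass the threshold. B4GALNT1, the enzyme that completes GD2, rose 2.04-fold, and B3GALT1 fell 10.9-fold. Over all genes tested, 6.37% were higher and 8.14% were lower by the same rule, 14.5% in either direction, and with 7 genes tested a count of 1 in each direction does not stand out from that background. ST8SIA1 and ST8SIA5 had too few fragments to be tested, and B3GALT4 was listed at 0. All 7 tested members had the libraries of the treatments apart, 5 with SGSS05-NS below DMSO and 2 above, and 74.7% of all genes tested were apart in this way. The median log2 fold change of the 7 was -0.23, beside 0.01 over all genes tested. RNA was taken from whole cultures, in which fewer cells expressing a gene and less of its RNA per cell cannot be told apart.

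**Figure D1:**
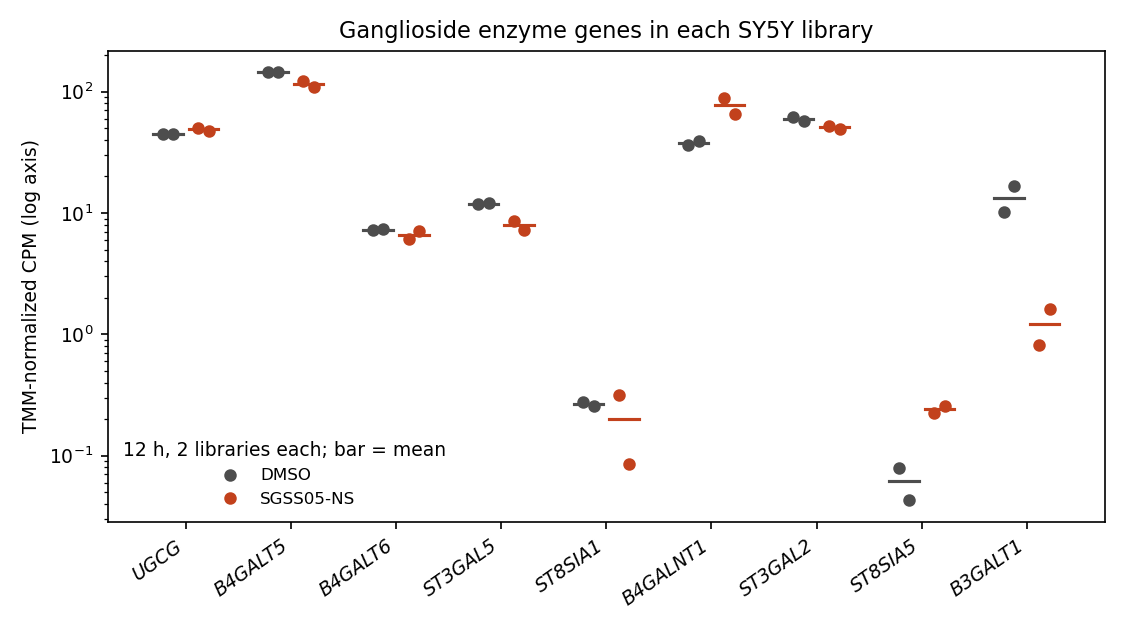
Level of each ganglioside enzyme gene in TMM-normalized CPM on a log axis, with points for the 2 DMSO libraries (grey) and the 2 SGSS05-NS libraries (red) and a bar at each mean. B4GALNT1 lies higher with SGSS05-NS (65.5 and 88.9 CPM against 36.5 and 39.0) and B3GALT1 lower (0.811 and 1.62 against 10.1 and 16.7). B3GALT4, at 0 in every library, cannot be drawn on this axis.

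The pathway starts with UGCG (ENSG00000148154.5, chromosome 9 of GRCh37 from 114659094 to 114697649, plus strand), the glucosylceramide synthase. It had 1124 and 1051 fragments with DMSO and 1115 and 1121 with SGSS05-NS, or 44.8 and 45.0 CPM against 50.2 and 47.7. The treated libraries were slightly above the controls, with a log2 fold change of 0.12 (standard error, SE, 0.10, adjusted p = 0.305), which did not pass the threshold.

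The next step has a pair of enzymes, and B4GALT5 (ENSG00000158470.5, chromosome 20 from 48249482 to 48330415, minus strand) was the more abundant of them. It had 3636 and 3373 fragments with DMSO and 2706 and 2553 with SGSS05-NS, a level of 145 ± 0.382 CPM against 115 ± 9.46 CPM. The treated libraries were the lower ones, and the log2 fold change of -0.33 (SE 0.10, adjusted p = 0.0149) lay short of the threshold of 0.001. B4GALT6 (ENSG00000118276.7, chromosome 18 from 29202209 to 29265799, minus strand) had 181 and 171 fragments with DMSO and 136 and 166 with SGSS05-NS. Its level of 7.27 ± 0.0746 CPM against 6.59 ± 0.658 CPM gave a log2 value of -0.14 for the change (SE 0.16, adjusted p = 0.518). Per kilobase of exons, B4GALT6 made up 4.35% and 4.43% of the summed level of the pair under DMSO, and 4.39% and 5.61% under SGSS05-NS. This balance overlapped between the treatments (exact permutation test, two-sided, p = 0.667, where 2 libraries against 2 cannot go below 0.333).

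ST3GAL5 (ENSG00000115525.12, chromosome 2 from 86064243 to 86132322, minus strand), the GM3 synthase from which the main ganglioside series branch, had 297 and 280 fragments with DMSO and 192 and 171 with SGSS05-NS. Its level was 11.9 ± 0.104 CPM and 7.96 ± 0.976 CPM. Both treated libraries were below both controls, and the log2 fold change of -0.58 (SE 0.15, adjusted p = 0.00782) did not pass 0.001. At an adjusted p-value of 0.05 as the threshold, ST3GAL5 and B4GALT5 would join B3GALT1 among the lower genes, making 3 members lower and 1 higher, where 23.7% of all genes tested were lower, 22.6% higher and 46.3% called in either direction.

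ST8SIA1 (ENSG00000111728.6, chromosome 12 from 22216707 to 22589975, minus strand), the GD3 synthase that opens the GD2 branch, was close to the limit of detection in these cells. Its fragments numbered 7 and 6 under DMSO, against 7 and 2 under SGSS05-NS, which is 0.279 and 0.257 CPM against 0.315 and 0.0850. The groups overlapped. Scaled for depth, treated cells had 0.734 times the DMSO count, with an exact binomial 95% interval from 0.277 to 1.86, which covers counting error only, so that a difference between the treatments was not detectable at this depth. Another 3 and 2 fragments with DMSO and 2 and 1 with SGSS05-NS lay on the opposite strand of its exons, so that stray fragments were not rare beside its own. On its own strand, the small nuclear RNA gene RNU1-149P shares 161 exon bases with ST8SIA1, and its part in the counts was not tested. CMAS, which makes the activated sialic acid that all sialyltransferases use, overlaps one end of ST8SIA1 on the other strand (CMAS runs from 22199152 to 22218608), without sharing exon bases in the current annotation. CMAS had 32.9 ± 0.843 CPM with DMSO and 32.2 ± 1.85 CPM with SGSS05-NS (log2 fold change -0.03, adjusted p = 0.821).

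B4GALNT1 (ENSG00000135454.9, chromosome 12 from 58017192 to 58027022, minus strand), the GM2 and GD2 synthase, had 915 and 912 fragments with DMSO and 1974 and 1540 with SGSS05-NS. This is 36.5 and 39.0 CPM under DMSO and 88.9 and 65.5 CPM under SGSS05-NS. Both treated libraries were well above both controls, although they differed from each other more than the controls did. The change on the log2 scale came to 1.03 (SE 0.13, adjusted p = 7.68e-05), between the 0.79 found without replicate 1 of SGSS05-NS and the 1.24 found without replicate 2. By p-value it ranked 938 among the genes tested. Exons of B4GALNT1 overlap those of the pseudogene SLC26A10P on the other strand, over 2136 bases in the current annotation. The counts were therefore compared by strand. On the opposite strand there were 34 and 33 fragments with DMSO and 47 and 64 with SGSS05-NS, which was 3.54% and 3.06% of the fragments of both strands. Counts taken without regard to strand were 535 and 537 with DMSO and 1290 and 1014 with SGSS05-NS. They were lower than the stranded counts, so they cover only part of those fragments, and gave a log2 fold change of 1.15.

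By Euclidean distance over the 4 libraries on the mean-centred log2 CPM scale, the genes with the pattern nearest to that of B4GALNT1 were ENSG00000272056 (distance 0.0442), LINGO1 (0.0676) and LONRF2 (0.0775). ENSG00000272056 had a low level, 0.372 CPM with DMSO and 0.836 CPM with SGSS05-NS, and did not pass the threshold (adjusted p = 0.0310). LINGO1, a membrane protein of neurons, rose from 3.90 to 8.08 CPM and LONRF2 from 16.4 to 33.2 CPM. With 4 libraries this is a description of like values.

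**Figure D2:**
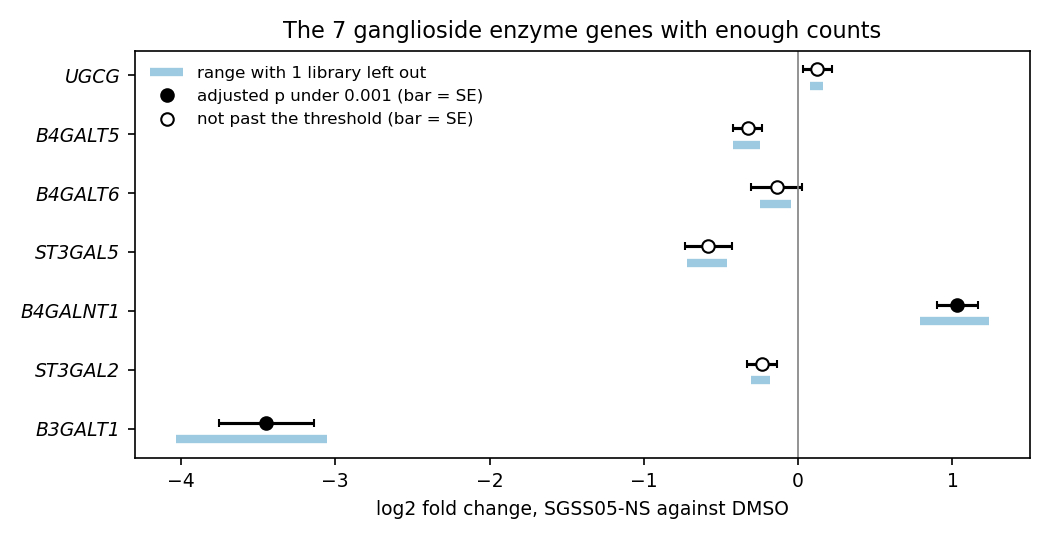
Log2 fold change of SGSS05-NS against DMSO for the 7 tested genes, as a point with its standard error (filled where the adjusted p-value was under 0.001), and below it the range of the estimate when each of the 4 libraries was left out. B4GALNT1 stays between 0.79 and 1.24 and B3GALT1 between -4.03 and -3.05, and no range crosses 0.

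Beyond GD2, ST3GAL2 (ENSG00000157350.8, chromosome 16 from 70409880 to 70473140, minus strand) puts a terminal sialic acid on the longer gangliosides. It had 1552 and 1343 fragments with DMSO and 1164 and 1152 with SGSS05-NS. The level of 59.7 ± 3.09 CPM against 50.7 ± 2.45 CPM was lower in the treated libraries, with a log2 fold change of -0.23 (SE 0.10, adjusted p = 0.0638) that did not pass the threshold. ST8SIA5 (ENSG00000101638.9, chromosome 18 from 44247784 to 44339220, minus strand), which adds further sialic acids to make polysialylated gangliosides, had 2 and 1 fragments with DMSO and 5 and 6 with SGSS05-NS. Scaled for depth, treated cells had 3.89 times the DMSO count (exact binomial 95% interval 1.03 to 21.7), and with genes of low counts kept in the test the adjusted p-value was 0.159. With so few fragments the size of this difference was poorly determined. B3GALT4 (ENSG00000235863.2, chromosome 6 from 33244900 to 33252609, plus strand), which turns GD2 into GD1b and GM2 into GM1, had 0 fragments in every library and in all 3 count columns. A count of 0 allows up to 0.0619 CPM over the DMSO libraries and 0.0656 CPM over the treated libraries, from 3 fragments per group and for counting error only. B3GALT4 lies in the MHC region, where its neighbours RPS18 and WDR46 were counted normally (2368 ± 406 and 56.5 ± 1.68 CPM with DMSO), but DDX39B and CSNK2B, which nearly every cell expresses, were listed at 0 as well. B3GALT4 is therefore described only as listed at 0, and the cause was not tested. In the current annotation, DDX39B shares up to 29.7% and CSNK2B up to 17.8% of exon bases with another gene on the same strand. B3GALT4 shares none. That annotation is later than the one used for the counts, and the part of shared exons in the counts of 0 was not tested.

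B3GALT1 (ENSG00000172318.4, chromosome 2 from 168149511 to 168730555, plus strand) was covered by 254 and 390 fragments under DMSO but by 18 and 38 under SGSS05-NS. Its level fell from 10.1 and 16.7 CPM to 0.811 and 1.62 CPM. The libraries within each treatment differed, but the groups stayed far apart. The log2 fold change of -3.45 (SE 0.31, adjusted p = 5.65e-06) was the lowest but 3 of all 16468 genes tested. It became -4.03 without replicate 2 of SGSS05-NS, which is over 1.5 times the fold change, and -3.05 without replicate 1. On the opposite strand, where B3GALT1-AS1 shares 241 exon bases, there were 2 and 3 fragments with DMSO and 4 and 1 with SGSS05-NS. On the same strand, the non-coding gene ENSG00000228222 shares 265 exon bases with B3GALT1 in the current annotation. Its part in the counts was not tested.

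Upstream sequence was available for 5 of the 10 genes: ST8SIA1, ST3GAL5, B3GALT1, UGCG and B4GALT5. The 250 bases before the start site are shown for B3GALT1 (the largest fall), ST8SIA1 (hardly detected) and B4GALT5 (the highest level), 5′ to 3′ on the strand of the gene, from RefSeq on GRCh38.p14, a later build than that of the counts. Capitals mark GC boxes (GGGCGG) and CCAAT boxes (CCAAT) on either strand.
B3GALT1: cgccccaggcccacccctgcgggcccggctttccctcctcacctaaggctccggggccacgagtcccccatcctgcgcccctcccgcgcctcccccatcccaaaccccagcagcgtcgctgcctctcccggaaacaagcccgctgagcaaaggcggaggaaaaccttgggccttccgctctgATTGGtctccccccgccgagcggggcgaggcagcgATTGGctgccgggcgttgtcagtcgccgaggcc
ST8SIA1: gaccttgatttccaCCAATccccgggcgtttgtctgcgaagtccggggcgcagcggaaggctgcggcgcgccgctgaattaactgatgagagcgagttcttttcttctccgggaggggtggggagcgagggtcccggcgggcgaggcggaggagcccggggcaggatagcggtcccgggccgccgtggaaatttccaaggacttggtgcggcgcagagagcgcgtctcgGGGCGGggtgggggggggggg
B4GALT5: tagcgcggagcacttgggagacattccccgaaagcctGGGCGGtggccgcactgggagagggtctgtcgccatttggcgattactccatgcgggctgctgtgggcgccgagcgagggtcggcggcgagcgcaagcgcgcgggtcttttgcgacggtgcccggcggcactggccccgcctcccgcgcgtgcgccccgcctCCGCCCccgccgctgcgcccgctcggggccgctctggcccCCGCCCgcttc
These windows are chr2:167292751-167293000 (plus strand), chr12:22334708-22334957 (minus strand) and chr20:49713879-49714128 (minus strand). All were rich in G and C, at 71.6% for B3GALT1, 69.2% for ST8SIA1 and 75.6% for B4GALT5, and held 23, 28 and 37 CpG dinucleotides, beside medians of 58.0% and 11 over 35114 promoter windows of the same length. B3GALT1 had 0 GC boxes and 2 CCAAT boxes, ST8SIA1 had 1 of each, and B4GALT5 had 3 GC boxes and 0 CCAAT boxes, where 42.6% of all windows held a GC box and 32.0% a CCAAT box. The p53 half-site consensus matched once in the window of B3GALT1 and not in the other 2, and it was found in 5.57% of all windows. UGCG, which did not pass the threshold, also had 3 GC boxes and 78.4% G and C.

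Levels of different genes were compared as CPM per kilobase of annotated exons. With DMSO the order was B4GALT5 (30.6 ± 0.0809), UGCG (9.83 ± 0.0292), ST3GAL2 (6.12 ± 0.317), B4GALNT1 (4.79 ± 0.230), B3GALT1 (2.29 ± 0.794), B4GALT6 (1.41 ± 0.0144), ST3GAL5 (0.731 ± 0.00641) and ST8SIA1 (0.0185 ± 0.00108), each SD with n = 2. The libraries of neighbours in this order did not overlap. With the longest transcript as the length, B4GALNT1 (6.77 ± 0.325) and ST3GAL2 (6.73 ± 0.348) could not be separated and ST3GAL5 (1.93) moved ahead of B4GALT6 (1.56). With SGSS05-NS, B4GALNT1 reached 9.79 ± 2.10 CPM per kilobase, above ST3GAL2 (5.20 ± 0.252) and overlapping with UGCG (10.7 ± 0.399), while ST8SIA1 (0.0138 ± 0.0112) and ST8SIA5 (0.0153 ± 0.00135) overlapped each other far below the tested members. 

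To see the genes around the core pathway, 5 wider lists with 73 genes were described, of which 64 were tested, 2 rose and 4 fell, where 6.37% of all genes tested rose and 8.14% fell. The 16 genes of ceramide supply had 13 tested members, of which 1 rose and 2 fell (6.37% and 8.14% over all genes). CERS6, a ceramide synthase that prefers palmitoyl chains, fell from 234 ± 13.4 to 126 ± 9.83 CPM (log2 fold change -0.89, SE 0.10, adjusted p = 2.74e-05). SPTLC2, a subunit of the serine palmitoyltransferase that begins sphingolipid synthesis, fell from 114 ± 1.67 to 76.9 ± 5.60 CPM (log2 fold change -0.56, adjusted p = 0.000540). SPTLC2 did not pass the threshold with scaling by library size only (-0.53, adjusted p = 0.00210) or without replicate 2 of SGSS05-NS (-0.49, adjusted p = 0.00167). KDSR, the reductase of the following step, rose from 37.3 ± 1.62 to 55.7 ± 0.120 CPM (log2 fold change 0.58, adjusted p = 0.000492). KDSR did not pass the threshold with counts taken without regard to strand (0.53, adjusted p = 0.00101) or without replicate 2 of DMSO (0.52, adjusted p = 0.00330). CERS1, the ceramide synthase typical of neurons, had 2.61 ± 0.365 and 5.05 ± 0.0712 CPM and did not pass the threshold (log2 fold change 0.95, adjusted p = 0.00262). The median of the list was 0.12.

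Among the 10 other glycosphingolipid enzymes, 8 were tested, 0 rose and 2 fell (6.37% and 8.14% over all genes). Both genes that fell are alpha-2,6-sialyltransferases that act on gangliosides. ST6GALNAC3 had 890 and 776 fragments with DMSO and 99 and 188 with SGSS05-NS, or 34.3 ± 1.60 and 6.23 ± 2.50 CPM, which is -2.46 as log2 fold change (SE 0.20, adjusted p = 2.37e-06). ST6GALNAC5, which makes GD1alpha, went from 22.8 ± 0.451 to 10.3 ± 1.07 CPM (log2 fold change -1.15, SE 0.13, adjusted p = 3.19e-05). The treated libraries of both were far below the controls. B3GNT5, which starts the lacto series, and GAL3ST1, the sulfatide sulfotransferase, had log2 fold changes of 0.30 (adjusted p = 0.0240) and 0.98 (adjusted p = 0.0388). The median of the list was 0.16, above 0, since the other 6 tested genes lay between -0.07 and 0.98.

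Of the 16 genes of the breakdown of gangliosides, other glycosphingolipids and ceramide, 15 were tested, 1 rose and 0 fell (6.37% and 8.14% over all genes). NEU1, the lysosomal sialidase, had 264 and 229 fragments with DMSO and 517 and 659 with SGSS05-NS. It rose from 10.2 ± 0.509 to 25.7 ± 3.34 CPM, which is 1.34 as log2 fold change (SE 0.14, adjusted p = 1.42e-05). GLA, the alpha-galactosidase, GM2A, the activator protein for the breakdown of GM2, and NEU3, the sialidase of the plasma membrane, had log2 fold changes of 0.70 (adjusted p = 0.00253), -0.53 (adjusted p = 0.00367) and 0.47 (adjusted p = 0.00553), short of the threshold. The median of the list was 0.08.

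All 12 genes of sugar nucleotide supply were tested and 0 were called, with a median of -0.01. Over all genes 6.37% were higher and 8.14% lower, so 0 calls in a list this short do not show that it was unaffected. SLC35A2, the Golgi transporter of UDP-galactose, had the smallest p-value of them (log2 fold change 0.61, adjusted p = 0.0102), followed by NANS, NANP and GNE, which make sialic acid (0.32, 0.32 and -0.25, adjusted p = 0.0450, 0.0496 and 0.0499). Of the 19 relatives of the member enzymes, 16 were tested and 0 were called in edgeR's quasi-likelihood test, with a median of -0.02. The same shares over all genes and the same limit apply to them. ST3GAL3 was nearest to the threshold (19.8 ± 3.23 against 11.7 ± 0.385 CPM, log2 fold change -0.76, adjusted p = 0.00113), and B4GALT2, B4GALT3 and B3GALT2 had log2 fold changes of -0.37, 0.26 and 0.77. ST8SIA3 (117 ± 11.9 CPM with DMSO) and ST8SIA2 (33.2 ± 12.2 CPM) were well expressed relatives of ST8SIA1, with log2 fold changes of 0.08 and 0.19 that did not pass the threshold.

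**Figure D3:**
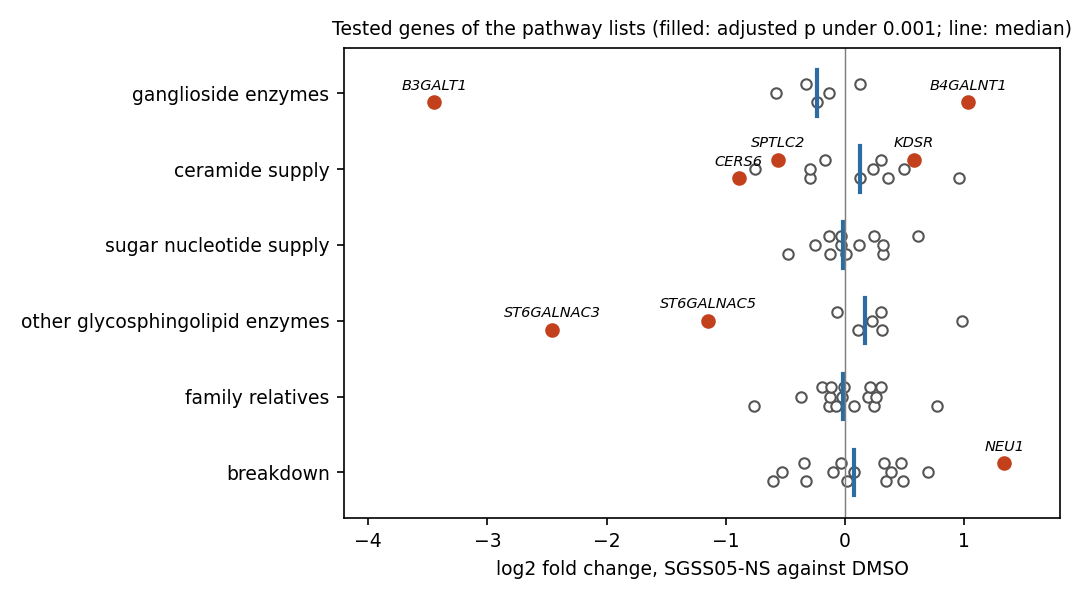
Log2 fold change of each tested gene of the ganglioside enzymes and the 5 wider lists, with filled points at an adjusted p-value under 0.001 and a line at the median of each list. ST6GALNAC3 (-2.46) and B3GALT1 (-3.45) stand far to the left of their lists, while the medians lie between -0.23 and 0.16.

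Gene length moved with these differences. All 5 genes of the 6 lists that fell (B3GALT1, ST6GALNAC3, CERS6, ST6GALNAC5 and SPTLC2) span at least 100 kb of the genome, from 111 kb for SPTLC2 to 581 kb for B3GALT1, while the 3 that rose (B4GALNT1, KDSR and NEU1) span 9.83, 39.5 and 5.25 kb. Of the 71 tested genes of the lists, 14 span at least 100 kb. Over all genes tested, 27.8% of those of at least 100 kb were lower and 1.48% higher. Among shorter genes 3.91% were lower, and among genes of any length 6.37% were higher. A split by length was therefore seen over all genes and is not particular to these lists. Of the 232 tested genes of at least 500 kb, 54.3% were lower, their median log2 fold change was -1.13, and B3GALT1 had the lowest value of them. The part of gene length in the fall of B3GALT1 was not tested. The other 6 tested members span under 100 kb, a class with a median of 0.09. How length within this class went with the change was not tested.

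**Figure D4:**
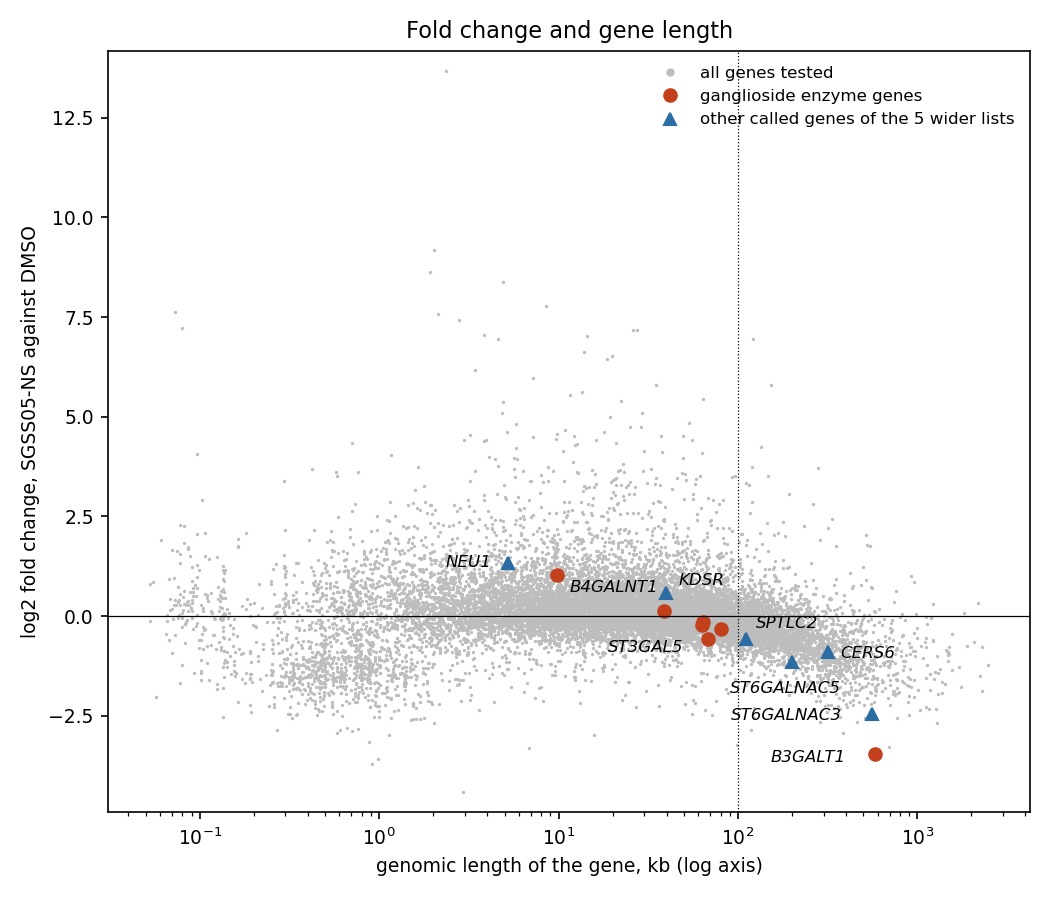
Log2 fold change of SGSS05-NS against DMSO and genomic length in kb (log axis) for all tested genes with a known length (grey), the 7 ganglioside enzyme genes (circles) and the called genes of the wider lists (triangles), with a dotted line at 100 kb. The genes of the lists that fell lie to the right of the line and those that rose to the left.

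Markers of NB lineage also moved with the treatment. Of 11 adrenergic markers, 10 were tested and 7 fell, where 8.14% of all genes did, with a median log2 fold change of -0.83 and a summed level between 3671 and 3957 CPM with DMSO and between 2059 and 2301 CPM with SGSS05-NS. HAND2 fell by 0.81 and GATA3 by 0.84 on the log2 scale. Of 11 mesenchymal markers, 8 were tested, 3 rose (FOSL1, FOSL2 and VIM) and 1 fell (TWIST1), where 6.37% of all genes rose and 8.14% fell. Their summed level was between 279 and 316 CPM with DMSO and between 269 and 280 CPM with SGSS05-NS, and PRRX1 and IFI16 were at 0. Of 5 Schwann cell markers 1 was tested and of 5 fibroblast and leukocyte markers 3, of which 0 were called, with summed levels under 5 CPM in every library. The part of these lineage genes in the rise of B4GALNT1 or the fall of B3GALT1 was not tested.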

How the data were processed

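RNA of 4 SY5Y libraries was analysed. Per the labels and the methods of the study, the authors trimmed paired reads with Trimmomatic (version 0.30), aligned them to hg19 with STAR (version 2.4.2a) and deposited the gene counts as STAR wrote them, without normalization or pooling, in 3 columns (unstranded and 1 for each strand). The reverse-strand column was used, since the other held between 4.64% and 5.05% of stranded gene fragments. The 4 summary rows, among them fragments mapped to several places (14.3% to 15.4%), were left out.

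Gene symbols and positions came from GENCODE release 44 on GRCh37 (55538 of 57820 identifiers matched). Exon lengths are the union of exons of that release, which is later than the one the counts were made with. The 10 ganglioside genes, all matched, were compared in edgeR 4.0.16 (R 4.3.3) with filterByExpr, TMM and the quasi-likelihood test without covariates. The study used edgeR's likelihood ratio test. Standard errors are the log2 fold change divided by the square root of F. The replicates of a treatment differed beyond counting noise (chi-square over its degrees of freedom: 8.76 for DMSO, 11.8 for SGSS05-NS). On simulated counts for this comparison over 16468 genes with 200 changed, 95.5% of changed genes were recovered and 3 unchanged genes called. The changed genes were drawn only from those above the lower quartile of mean level, with changes of 2-fold or more. Recovery among genes below that quartile was not tested. Of the genes changed 2-fold, 91.7% were recovered. Recovery of differences under 2-fold, the size seen in the members that did not pass the threshold, was not tested.

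The members and lists were chosen with earlier results of these data known. Named were all members, the 4 genes of each wider list with the smallest p-values, KMT5A, CDKN1A, and the 3 genes nearest to B4GALNT1. For ST8SIA1 no like genes are named, since its fragments are too few. RPS18, WDR46, DDX39B, CSNK2B, ST8SIA2, ST8SIA3 and CMAS were named after their values were seen, as were the lineage markers singled out. Values of some lineage markers are not reported here. Alternatives were other tests (DESeq2 1.42.0, limma voom 3.58.1, the likelihood ratio test), scalings, filters, strand, thresholds, lengths, a replicate block and each library left out.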

Additional observations from a re-analysis of the deposited data

How the results depend on the processing

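Over 13 alternatives for each of the 7 tested ganglioside genes, all 91 log2 fold changes kept their direction and 90 their side of the threshold. The exception was ST3GAL5, whose value of -0.61 passed with genes of low counts kept (adjusted p = 0.000954), its adjusted p-value ranged from 0.00108 to 0.0432 over the other alternatives. The number of members lower was then 2, and 3 at an adjusted p-value of 0.05. With each library left out, for which the lone library is assumed to vary like the other treatment, 1 member rose and 1 fell in each case, and the log2 fold change ranged from 0.79 to 1.24 for B4GALNT1, -0.72 to -0.46 for ST3GAL5, -0.31 to -0.19 for ST3GAL2, -4.03 to -3.05 for B3GALT1, 0.08 to 0.16 for UGCG, -0.24 to -0.05 for B4GALT6, -0.42 to -0.25 for B4GALT5 and -0.31 to -0.19 for the median of the members.

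Over all genes tested, the numbers higher and lower were 1049 and 1341. They were 2022 and 2267 with the likelihood ratio test, 2034 and 2570 with genes of low counts kept, 3728 and 3903 at an adjusted p-value of 0.05, and from 1037 to 1279 and from 1322 to 1649 with a library left out. The replicate block gave 1759 higher and 2007 lower genes. The numbers do not pair the libraries: the differences between replicates 1 and 2 correlated by 0.0526 across genes between the treatments. No member changed its call with the block.

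For ceramide supply, the number higher was 2 with the likelihood ratio test, low counts kept or the block, and 0 without regard to strand. The number lower was 1 with library size only and from 1 to 2 with a library left out. At an adjusted p-value of 0.05, 5 were higher and 5 lower. Over all genes tested, 22.6% were higher and 23.7% lower at 0.05, and these shares stand beside the counts of every list at 0.05. At that threshold sugar nucleotide supply had 3 higher and 1 lower, and the other glycosphingolipid enzymes had 2 higher. Of the family relatives, 1 was lower with the likelihood ratio test, DESeq2, DESeq2 size factors, low counts kept, the block and unstranded counts, from 0 to 1 were higher and from 0 to 1 lower with a library left out, and 1 was higher and 2 lower at 0.05. For breakdown, 2 were higher with the likelihood ratio test or low counts kept, 3 with the block and from 1 to 3 with a library left out, 1 was lower with the likelihood ratio test or low counts kept, and at 0.05 there were 6 higher and 3 lower. The causes were not tested.

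DMSO levels per kilobase with the longest transcript were 6.77 for B4GALNT1, 1.93 for ST3GAL5, 6.73 for ST3GAL2, 11.3 for UGCG and 1.56 for B4GALT6, and the share of B4GALT6 was 4.83%. Without regard to strand they were 2.91, 0.759, 5.32, 10.2 and 1.46, with 31.8 for B4GALT5. Depth limits ST8SIA1 and ST8SIA5, with 2 to 7 and 1 to 6 fragments per library.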
